A study of Mus musculus with 6 samples.

Results

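Peaks of DNA methylation were examined at 10 mouse genes of glucose handling and oxidative stress, Slc2a1, Slc2a4, Pfkfb3, Akr1b3, Gfpt1, Prkcb, Ager, Nox4, Txnip and Nfe2l2. They were chosen by name out of 22359 protein-coding genes on chromosomes 1 to 19, X and Y, and all 10 were found in the GENCODE vM1 annotation of the mm9 genome. The cells were mouse primary mesangial cells, which hold the capillary loops of the glomerulus together and can contract, at passages 3 to 6. TGF-β1 was given at 10 ng/ml for 72 h to 3 of the samples, and the other 3 are labelled control, with no vehicle named. Both groups grew in the same medium (DMEM, 25.5 mM glucose, 20% fetal bovine serum), and no sample had less glucose, so glucose itself was not compared. Methylated DNA was pulled down with an antibody and sequenced (MeDIP-seq), and peaks were called in each sample separately. A gene was given the peaks whose summit lay in it or within 10 kb on either side. These were 234 of 579787 peaks, and they joined into 64 of 170444 regions when peaks that shared at least 1 bp were merged. The peak lists hold no expression, so the labelled cell type could not be checked against its markers.

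Glucose enters cells through facilitative transporters and is mostly burned in glycolysis. When it is abundant, more of it can flow into side routes, namely the polyol pathway, the hexosamine pathway, the formation of diacylglycerol that activates protein kinase C, and the formation of glycation products that are bound by the receptor RAGE. These routes, together with superoxide and peroxide made by NADPH oxidases, are the classical account of how high glucose harms mesangial cells. In the genome, methylation of cytosine falls mostly on CpG sites in gene bodies and between genes, while CpG-rich promoters of expressed genes are usually free of it. MeDIP signal tends to rise with the number of methylated CpG sites in a fragment.

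Peak height is given as pileup, which counts the extended reads lying over the summit and was not scaled for depth. Peak calling used 9407103 to 11494356 reads in the control samples and 12634300 to 13291419 reads in the TGF-β1-treated samples. Every treated sample was therefore deeper than every control sample, and where the number or the raw height of peaks differs, treatment and depth cannot be told apart. The lowest pileup called anywhere was 8 reads in each control sample and 9 to 10 reads in the treated samples, so a sample without a peak may still have had reads there. Control replicate 1 had the fewest peaks in all (81473, against 90337 to 105520 in the other samples). The study calls the samples of a group biological replicates, but neither the labels nor the methods say that they came from separate cultures, so p-values measure only the spread between these samples, which may be technical.

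The sequences below, from the NCBIM37 (mm9) reference, are shown for the regions and gene starts to which the results return, with each CpG site in capitals and read in the direction of the gene. The first is the region with the lowest p in the test of pileup, the second the region that all 3 treated samples and no control sample called (added to this set after its values were seen), and the third a region called in every sample. Each window is 300 bp around the summit of the highest peak.
Slc2a1 region 3 (chr4:118791802-118792101, plus strand): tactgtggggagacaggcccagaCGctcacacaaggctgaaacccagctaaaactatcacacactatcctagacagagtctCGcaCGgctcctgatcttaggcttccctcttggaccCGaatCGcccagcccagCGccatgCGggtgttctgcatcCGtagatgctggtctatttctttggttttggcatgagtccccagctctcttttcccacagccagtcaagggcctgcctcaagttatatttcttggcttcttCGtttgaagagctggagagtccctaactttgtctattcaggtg
Gfpt1 region 6 (chr6:87018858-87019157, plus strand): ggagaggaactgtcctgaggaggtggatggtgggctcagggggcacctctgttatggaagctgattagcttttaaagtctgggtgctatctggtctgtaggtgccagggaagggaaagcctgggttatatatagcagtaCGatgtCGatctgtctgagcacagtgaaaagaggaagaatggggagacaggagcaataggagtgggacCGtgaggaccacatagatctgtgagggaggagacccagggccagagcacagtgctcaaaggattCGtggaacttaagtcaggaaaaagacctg
Nfe2l2 region 2 (chr2:75521924-75522223, minus strand): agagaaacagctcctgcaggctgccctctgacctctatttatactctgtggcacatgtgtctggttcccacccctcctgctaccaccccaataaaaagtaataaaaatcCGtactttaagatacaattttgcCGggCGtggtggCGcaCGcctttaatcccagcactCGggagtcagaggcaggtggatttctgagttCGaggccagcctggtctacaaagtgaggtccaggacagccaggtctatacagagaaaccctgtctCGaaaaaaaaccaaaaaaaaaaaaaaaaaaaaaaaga

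The next 2 windows hold 250 bases before and 50 after an annotated start, the first base of the protein-coding transcript with the longest coding sequence. They are shown because no peak lay over them in any sample, although they hold more CpG sites than the windows above.
Gfpt1 start (chr6:86992635-86992934, plus strand): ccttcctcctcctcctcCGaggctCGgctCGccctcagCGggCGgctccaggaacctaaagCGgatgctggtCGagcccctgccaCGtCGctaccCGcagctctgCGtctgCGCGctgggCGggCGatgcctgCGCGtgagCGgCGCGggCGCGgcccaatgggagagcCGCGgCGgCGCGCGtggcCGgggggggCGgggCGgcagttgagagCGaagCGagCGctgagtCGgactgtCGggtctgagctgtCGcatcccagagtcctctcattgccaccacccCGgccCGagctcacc
Txnip start (chr3:96361630-96361929, plus strand): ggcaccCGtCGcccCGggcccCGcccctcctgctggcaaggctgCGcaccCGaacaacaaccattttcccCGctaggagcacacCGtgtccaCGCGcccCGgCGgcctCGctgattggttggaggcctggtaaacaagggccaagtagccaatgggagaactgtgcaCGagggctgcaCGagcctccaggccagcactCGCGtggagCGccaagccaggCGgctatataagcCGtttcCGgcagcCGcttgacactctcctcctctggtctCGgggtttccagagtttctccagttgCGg

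At 8 of the 10 genes the start window held more CpG sites than the window of any region of the same gene. The exceptions were Slc2a1, with 14 at the start and 14 in region 7, and Ager, with 5 at the start and up to 14 in its regions. The 10 start windows had a median of 21.5 CpG sites (from 5 at Ager to 39 at Gfpt1), against 12 over all 22359 promoters. The 64 regions with peaks had a median of 7 CpG sites in the 300 bp around the summit (from 0 to 14), the same median as over 169591 regions of the genome. Regions called in all 6 samples had a median of 8 at these genes and 9 in the genome. A peak with its summit between 2 kb upstream and 500 bp downstream of any protein-coding start, here called a promoter peak, was present at Gfpt1 and Ager only, in 2 of the 10 genes, against 25.8% of all protein-coding genes. A promoter peak in all 6 samples was seen at 0 of the 10 genes and at 6.92% of all genes. Promoters with at least 10 CpG sites had a peak in at least 1 sample in 28.3% of cases over the genome, and those with fewer in 22.8%. A promoter without a peak was thus the usual case in both classes. CpG sites were counted in the 300 bp start window, and peaks over the whole promoter.

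**Figure D1:**
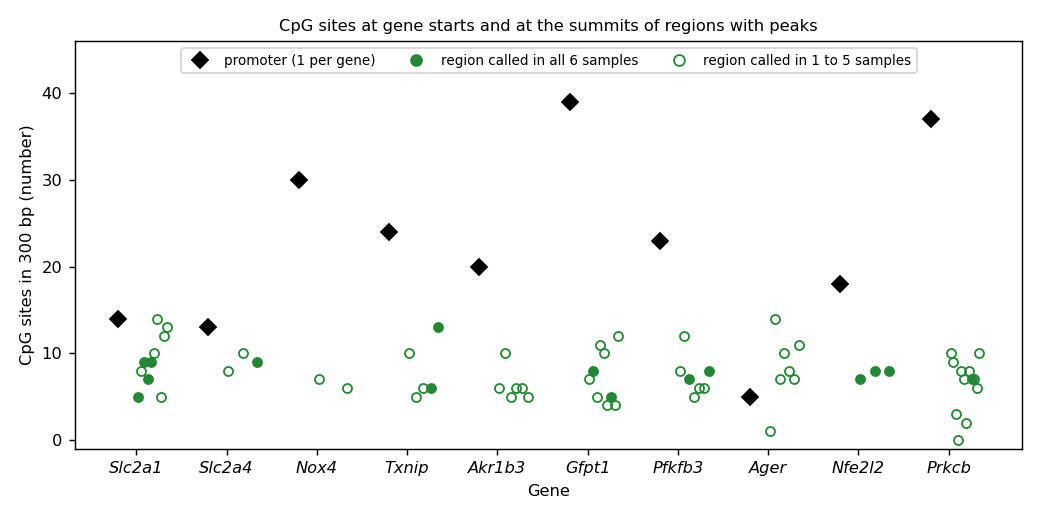
Number of CpG sites in 300 bp (vertical axis) at the start of each gene (black diamonds) and around the summit of each region with peaks (green circles, filled where all 6 samples called the region). The start windows reach 39 CpG sites at Gfpt1, the regions stay at 14 or below, and the starts of Slc2a1 (14 sites) and Ager (5 sites) do not lie above all regions of the gene.

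Letters of known regulatory motifs were looked for in the start windows on both strands. The E-box CACGTG, which transcription factors of the basic helix-loop-helix family bind, was present in 1 of the 10 windows, that of Akr1b3. It was present in 7.78% of all promoters. Only these exact letters were searched, so imperfect forms of the E-box were not counted at any gene, Txnip included. The core of the antioxidant response element, TGACNNNGC, which Nfe2l2 protein binds, was present in 0 of the 10 windows and in 12.6% of all promoters. Of the regions with peaks, 6 of 64 (9.38%) held AATCCCAGC, a run of letters within the B1 repeat of the mouse genome, against 6.35% of all regions. Region 2 of Nfe2l2, printed above, was among these 6, and so was region 1 of Gfpt1, its promoter peak. Only these exact letters were searched, so the repeat itself was not mapped.

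Of the 64 regions, 2 lay at promoters, 41 in gene bodies and 21 in the flanks. Of the body regions, 30 had the summit in an intron, 9 in a coding exon and 2 in a non-coding part of an exon. All 6 samples called 15 of the regions (23.4%, against 24.5% of all regions), and 13 (20.3%, against 27.3%) were called in 1 sample. The median number of peaks per 10 kb of gene and flanks was 0.772 at the 10 genes and 0.524 over all protein-coding genes. It was highest at Txnip (1.74 per 10 kb, above 99.1% of genes), Ager (1.59, above 98.2%) and Slc2a1 (1.47, above 97.1%), and lowest at Nox4 (0.0290, above 15%) and Prkcb (0.155, above 22.9%).

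The number of peaks at the 10 genes did not separate the groups. Control replicates 1, 2 and 3 had 29, 40 and 45 peaks and TGF-β1 replicates 1, 2 and 3 had 42, 39 and 39. Control replicate 1 was the lowest of all, and the treated samples lay between it and control replicate 3. Control samples averaged 38 ± 8.19 peaks and treated samples 40 ± 1.73 (SD, n = 3; two-sided exact permutation test, p = 0.9). With 3 samples a group, p cannot fall below 0.1 in this test. Per 1000000 reads the order of the means turned, with 3.66 ± 0.754 in control and 3.11 ± 0.181 in treated samples (exact permutation p = 0.4), and without control replicate 1 the difference was -2.50 peaks.

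By position, gene bodies had 17, 24 and 27 peaks in control and 28, 27 and 23 in treated samples. The groups overlapped (22.7 ± 5.13 against 26 ± 2.65, SD, n = 3, exact permutation p = 0.6). Flanks held 12, 15 and 18 peaks in control and 13, 12 and 15 in treated samples, which overlapped as well (15 ± 3 against 13.3 ± 1.53, exact permutation p = 0.7). Per 1000000 reads, each treated sample had fewer flank peaks than each control sample (1.44 ± 0.241 in control, 1.03 ± 0.0901 in treated samples, SD, n = 3, exact permutation p = 0.1, the smallest possible). As a percentage of all peaks of the sample, flank peaks were 0.0164 ± 0.00160 in control and 0.0130 ± 0.00114 in treated samples (exact permutation p = 0.1). For the unscaled number of flank peaks, the difference was -1.67. It was 0 with 2 kb in place of 10 kb on either side, and -0.167 without control replicate 3. The values per 1000000 reads and as a percentage were not computed in these 2 settings. The promoters held 0, 1 and 0 peaks in control and 1, 0 and 1 in treated samples (exact permutation p = 1).

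**Figure D2:**
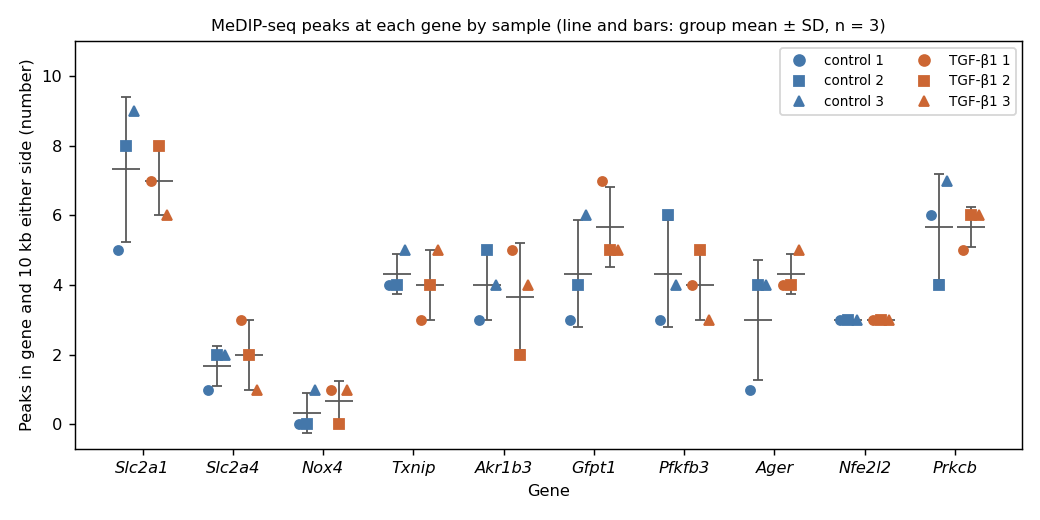
Number of peaks in each gene and 10 kb on either side (vertical axis) in each sample, control in blue and TGF-β1 in orange, with circles, squares and triangles for replicates 1, 2 and 3 and grey lines for the mean ± SD (n = 3). The groups overlap at all 10 genes, and Nfe2l2 has 3 peaks in every sample.

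At 0 of the 10 genes did every treated sample have more, or fewer, peaks than every control sample. Over the 19115 protein-coding genes with at least 1 peak, this was so at 4.02% in the direction of more and 0.345% in the direction of fewer. The exact permutation p of the 10 genes ran from 0.4 (Gfpt1) to 1, and the p-values were not adjusted because the genes were chosen with earlier results of these data known.

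Height was compared in the 15 regions that all 6 samples called, which lay at 7 of the genes (Slc2a1, Slc2a4, Pfkfb3, Gfpt1, Prkcb, Txnip and Nfe2l2). The log2 of pileup, after subtraction of the sample median, was fitted with limma over all 41744 regions of this kind in the genome. By limma, 0 of the 15 regions differed at a Benjamini-Hochberg adjusted p below 0.05, as did 0 of the 41744 (0%, smallest adjusted p = 0.677). At an unadjusted p below 0.05 it was 1 of the 15, against 4.18% of all regions. That region was higher in treated samples, as were 1.96% of all regions, while 0 of the 15 were lower at this p, against 2.22%. The fitted log2 fold change was above 0 in 7 regions and below 0 in 8, from -0.31 to 0.47, with a median of -0.077 against -0.005 over all regions. These directions depended on the scaling, since without it 11 regions were above 0 and 4 below (median 0.145, against 0.218 over all regions), and per 1000000 reads 5 were above and 10 below (median -0.168, against -0.096). Over the genome, 4855 regions were higher and 17 lower at an unadjusted p below 0.05 without scaling, and 212 higher and 2387 lower per 1000000 reads. In raw pileup every treated sample exceeded every control sample in 5 of the 15 (14.6% of all regions), and in 0 of the 15 every treated sample was lower (0.309%). Per 1000000 reads the groups did not overlap in 4 of the 15, with 1 higher (1.97% of all regions) and 3 lower (10.4%) in treated samples.

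**Figure D3:**
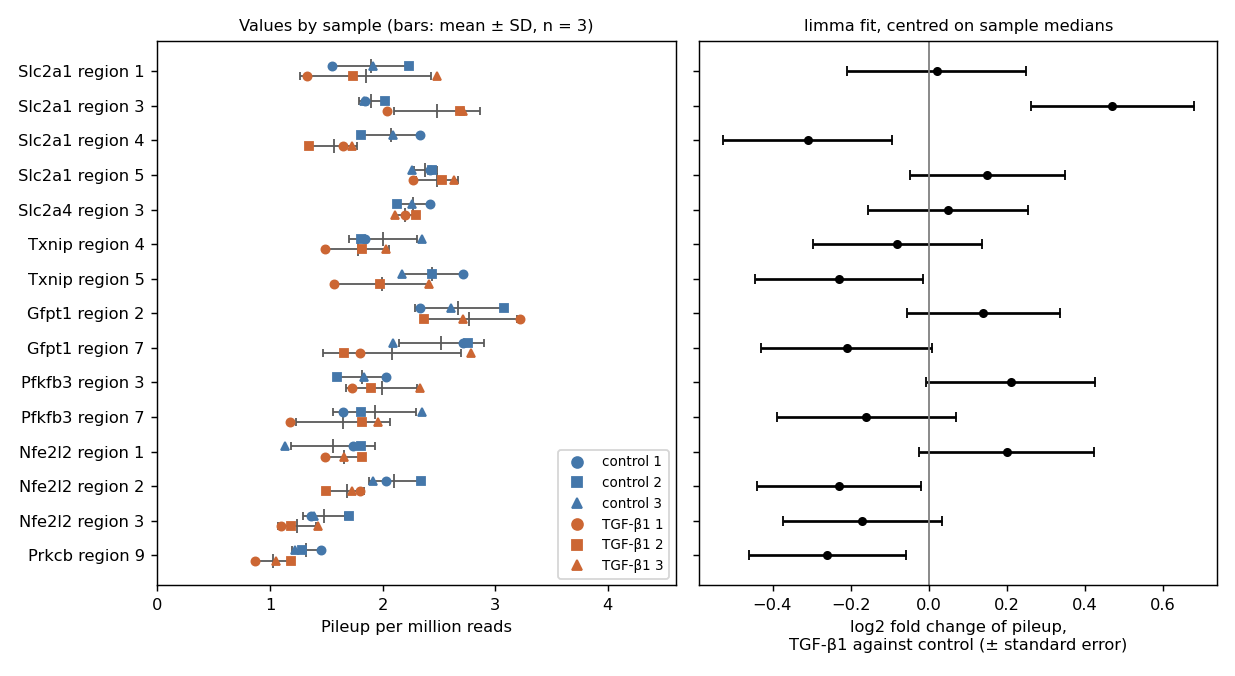
The 15 regions that all 6 samples called. The left panel shows pileup per 1000000 reads in each sample with the group mean ± SD (n = 3), and the right panel the log2 fold change of pileup fitted by limma with its standard error. Region 3 of Slc2a1 has the widest change (0.47), and the lowest is that of region 4 of the same gene (-0.31).

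The facilitative transporters differed in how much methylation surrounded them. Slc2a1 encodes GLUT1, the main glucose transporter of mesangial cells. It lies on the plus strand of chromosome 4 from 118781316 to 118809935 and had 5, 8 and 9 peaks in control and 7, 8 and 6 in treated samples (7.33 ± 2.08 against 7 ± 1, SD, n = 3). The nearest of its 10 regions ended 7959 bp upstream of the start, so the start itself stood in a wide gap.

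Region 3 of Slc2a1, in intron 1 (chromosome 4, 118791719 to 118792121), had pileups of 19, 19 and 21 reads in control and 26, 34 and 36 in TGF-β1-treated samples. Every treated sample was above every control sample, also per 1000000 reads (1.90 ± 0.107 against 2.48 ± 0.381, SD, n = 3). The log2 fold change was 0.47 (standard error 0.209, limma unadjusted p = 0.0323, adjusted p = 0.999). Per 1000000 reads, or without control replicate 3, TGF-β1 replicate 2 or TGF-β1 replicate 3, the number of regions of the 10 genes at an unadjusted p below 0.05 was 0. The log2 fold change stayed above 0 in these settings, at 0.38 per 1000000 reads and at 0.44, 0.38 and 0.42 without these samples in turn. Leaving out any 1 of the 6 samples gave 0.38 to 0.60. Since the region was picked for its lowest p in these same samples, the kept sign is no further support for a change.

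Region 4 of Slc2a1, in intron 2 (118796096 to 118796462), went the other way. It had 24, 17 and 24 reads in control and 21, 17 and 23 in treated samples (log2 fold change -0.31, standard error 0.217, limma adjusted p = 0.999). Raw pileups overlapped, while per 1000000 reads each treated sample was below each control sample. Region 5, in coding exon 3 (118804549 to 118805002), had 25, 23 and 26 reads in control and 29, 32 and 35 in treated samples, a raw separation that was not kept per 1000000 reads (2.38 ± 0.0998 against 2.48 ± 0.185). Upstream of the gene, region 1 (118772971 to 118773357) had 16, 21 and 22 reads in control and 17, 22 and 33 in treated samples, with overlapping groups. Region 7, in coding exon 10 (118808600 to 118808997), was called in 2 treated samples (22 and 29 reads in replicates 1 and 2) and in no control sample. The share of all regions with this pattern was not counted.

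Slc2a4 encodes GLUT4, the insulin-responsive transporter of muscle and fat. The gene (chromosome 11, minus strand, 69756045 to 69761690) had 1, 2 and 2 peaks in control and 3, 2 and 1 in treated samples. The region called in every sample was region 3, in the upstream flank (69767829 to 69768297), with 25, 20 and 26 reads in control and 28, 29 and 28 in treated samples. Those raw groups did not overlap, but per 1000000 reads they did (2.27 ± 0.148 against 2.20 ± 0.0944, SD, n = 3), and the log2 fold change was 0.05 (standard error 0.205, limma adjusted p = 0.999).

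Pfkfb3 encodes the enzyme that makes fructose 2,6-bisphosphate, the strongest activator of glycolysis at phosphofructokinase. It lies on the minus strand of chromosome 2 from 11393057 to 11423728 and had 3, 6 and 4 peaks in control and 4, 5 and 3 in treated samples. Region 3, over coding exon 8 (11405599 to 11406540), had 21, 15 and 21 reads in control and 22, 24 and 31 in treated samples. The groups were next to each other without overlap in raw pileup and overlapped per 1000000 reads (log2 fold change 0.21, standard error 0.217, limma adjusted p = 0.999). Region 7, upstream of the gene (11426486 to 11427026), had 17, 17 and 27 reads in control and 15, 23 and 26 in treated samples, fully overlapping. The other 5 regions of the gene were called in 1 to 5 samples.

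Among the side routes, Akr1b3, aldose reductase, makes the first step of the polyol pathway from glucose to sorbitol. The gene (chromosome 6, minus strand, 34253934 to 34267497) had 3, 5 and 4 peaks in control and 5, 2 and 4 in treated samples, and 0 of its 6 regions were called in every sample. Region 6, in the upstream flank (34273250 to 34273700), was called in the 3 control samples (23, 21 and 22 reads) and, of the treated samples, in replicate 1 (24 reads). Where it was called, its pileup was thus alike in all 4 samples. The nearest region to the start, region 3 in intron 1, lay 932 bp downstream of it and was called in 4 samples with 15 to 25 reads.

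Gfpt1 encodes the rate-limiting enzyme of the hexosamine pathway, which supplies the sugar for O-linked modification of proteins. It lies on the plus strand of chromosome 6 from 86992840 to 87042191 and had 3, 4 and 6 peaks in control and 7, 5 and 5 in treated samples (4.33 ± 1.53 against 5.67 ± 1.15, SD, n = 3, exact permutation p = 0.4). This was the lowest p of the 10 genes, and the groups overlapped.

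Region 6 of Gfpt1, in intron 12 (87018829 to 87019285), was called in all 3 treated samples, with 15, 15 and 22 reads, and in no control sample. It was the 1 region of the 64 with this pattern, which 0.948% of all regions showed. The opposite pattern was seen in 0 of the 64 regions and in 0.233% of all regions. The window printed above has 4 CpG sites. The control samples had fewer reads, and the part of depth in this result was not tested.

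Region 2 of Gfpt1, in intron 2 (87002979 to 87003483), was the highest of the shared regions. It had 24, 29 and 30 reads in control and 41, 30 and 36 in treated samples (log2 fold change 0.14, standard error 0.195, limma adjusted p = 0.999), and control replicate 3 equalled TGF-β1 replicate 2. Region 7, in intron 16 (87033261 to 87033692), had 28, 26 and 24 reads in control and 23, 21 and 37 in treated samples, where the treated samples lay on both sides of the control samples. The promoter peak, region 1 (86991696 to 86991996), ended 889 bp upstream of the start and was called in control replicate 2 (12 reads) and TGF-β1 replicate 1 (15 reads).

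Prkcb encodes protein kinase C beta, the isoform whose inhibition has been tried against diabetic kidney disease. It is the longest of the 10 genes (chromosome 7, plus strand, 129432265 to 129777916), and its 12 regions were low. It had 6, 4 and 7 peaks in control and 5, 6 and 6 in treated samples (5.67 ± 1.53 against 5.67 ± 0.577, SD, n = 3). Region 9, in intron 12 (129728161 to 129728592), was the one called in every sample, with 15, 12 and 14 reads in control and 11, 15 and 14 in treated samples. Raw pileups overlapped, and per 1000000 reads each treated sample was below each control sample (1.32 ± 0.123 against 1.03 ± 0.163). The fitted log2 fold change was -0.26 (standard error 0.201, limma adjusted p = 0.999). Region 1, in the upstream flank (129423340 to 129423662), was called in control replicates 1 and 3 (16 and 13 reads) and in no treated sample. Region 2, in intron 2 (129457073 to 129457584), was called in TGF-β1 replicates 2 and 3 (11 and 13 reads) and in no control sample. The shares of all regions with these patterns of calls were not counted. Regions 3, 4 and 7 held 3, 0 and 2 CpG sites in the 300 bp around the summit. Whether their peaks mark methylated CpG sites was not tested.

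Ager encodes RAGE, the receptor for glycation products. The gene is short and lies in the crowded major histocompatibility region of chromosome 17 (plus strand, 34734807 to 34737879), so its flanks reach into other genes. It had 1, 4 and 4 peaks in control and 4, 4 and 5 in treated samples, with control replicate 1 the lowest. Of its 7 regions, regions 2 and 3 had their summits inside Pbx2, regions 5, 6 and 7 inside Agpat1, and region 1 at the promoter of Gpsm3. The 1 region in the body of Ager was region 4 (34737142 to 34737753), in coding exon 10, with 13 and 18 reads in control replicates 2 and 3, and with 15 and 16 reads in treated replicates 1 and 2. The promoter peak, region 3 (34733110 to 34733400), was called in TGF-β1 replicate 3 only, with 13 reads. It ended 1407 bp upstream of the start of Ager.

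Among the genes of oxidative stress, Nox4 was nearly without peaks. It encodes the NADPH oxidase that makes hydrogen peroxide in kidney cells and that TGF-β1 is known to induce in fibroblasts. Over the gene and its flanks (chromosome 7, plus strand, 94394606 to 94547220), control replicate 3, TGF-β1 replicate 1 and TGF-β1 replicate 3 had 1 peak each, and the other 3 samples had 0. Region 1, in intron 2 (94427839 to 94428201), was called in control replicate 3 (19 reads) and TGF-β1 replicate 1 (18 reads). Region 2, in intron 4 (94448200 to 94448499), was called in TGF-β1 replicate 3 (18 reads). The nearest region to the start was 32531 bp downstream, and the nearest called in every sample was 171437 bp away, beyond the gene. The start window holds 30 CpG sites, more than 85.0% of promoters.

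Txnip encodes the thioredoxin-interacting protein, an inhibitor of thioredoxin whose transcription rises steeply with glucose. The gene (chromosome 3, plus strand, 96361880 to 96365806) held no peak in its body or promoter in any of the 6 samples, and its 5 regions all lay in the flanks. It had 4, 4 and 5 peaks in control and 3, 4 and 5 in treated samples. Region 4 (96372475 to 96372996) had 19, 17 and 27 reads in control and 19, 23 and 27 in treated samples, and region 5 (96373496 to 96374042) had 28, 23 and 25 in control and 20, 25 and 32 in treated samples. The groups overlapped in both regions (log2 fold changes -0.08 and -0.23, standard errors 0.217 and 0.215, limma adjusted p = 0.999 for each).

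Nfe2l2 encodes NRF2, the transcription factor that switches on antioxidant genes. It was the most even of the 10 genes. It lies on the minus strand of chromosome 2 from 75513570 to 75542698, and each of the 6 samples had 3 peaks at it, in the same 3 regions. Region 1, in coding exon 5 (75514215 to 75514877), had 18, 17 and 13 reads in control and 19, 23 and 22 in treated samples. The raw groups did not overlap there, and per 1000000 reads they did (1.56 ± 0.374 against 1.66 ± 0.165, SD, n = 3). Region 2, in intron 1 (75521877 to 75522261), had 21, 22 and 22 reads in control and 23, 19 and 23 in treated samples. These raw values overlapped, while per 1000000 reads each treated sample was below each control sample (2.1 ± 0.219 against 1.68 ± 0.157). Region 3, also in intron 1 (75537854 to 75538353), had 14, 16 and 16 reads in control and 14, 15 and 19 in treated samples. The log2 fold changes were 0.20, -0.23 and -0.17 for regions 1, 2 and 3 (standard errors 0.224, 0.211 and 0.204, limma adjusted p = 0.999 for each).

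**Figure D4:**
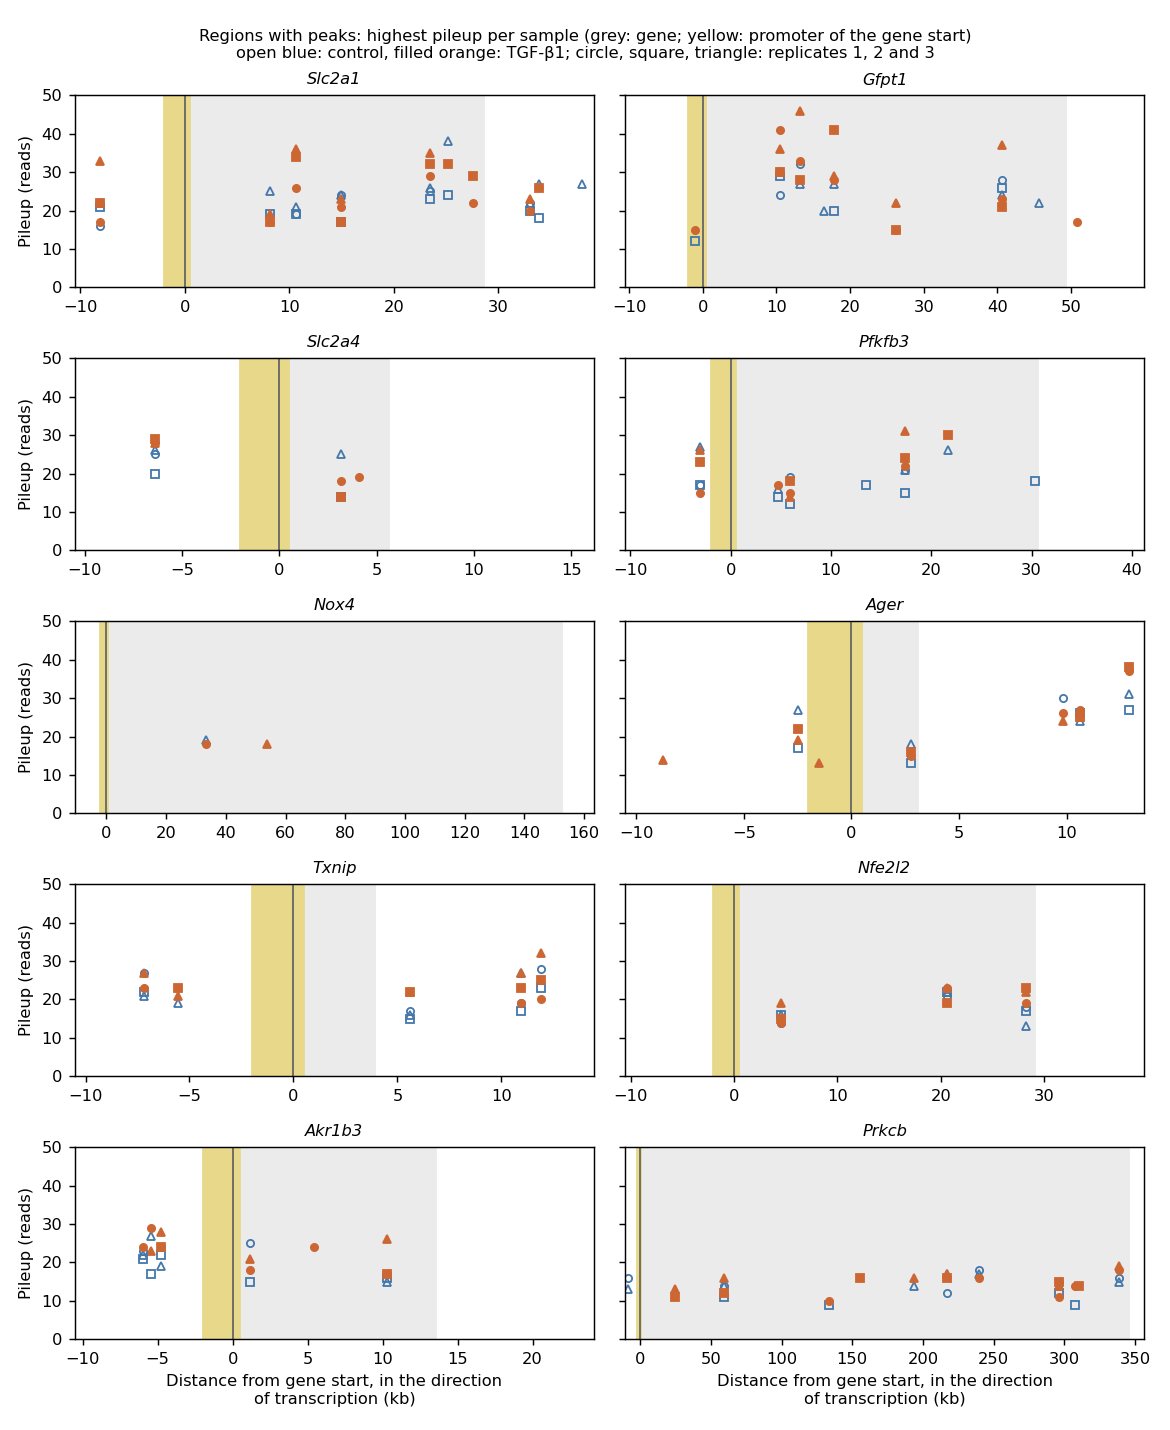
Highest pileup per sample (vertical axis, reads) of each region of the 10 genes against the distance of its summit from the gene start in the direction of transcription (horizontal axis, kb, different in each panel). Open blue symbols are control and filled orange symbols TGF-β1, with circles, squares and triangles for replicates 1, 2 and 3, grey marks the gene and yellow the 2 kb upstream to 500 bp downstream of its start. Gfpt1 and Ager have a region in the yellow band, Nox4 has 2 regions in all, and Txnip has none in the gene.

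The regions not described singly had pileups between 9 and 46 reads. Over the 64 regions, 16 were called in more control than treated samples, 19 in more treated than control samples and 29 in as many of each. The shares of these patterns over all regions of the genome were not counted. The treated samples were the deeper ones, and the part of depth in these counts was not tested.

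The other genes of these pathways were taken from a list of 113 symbols covering glucose transporters, glycolysis, polyol and methylglyoxal metabolism, the hexosamine pathway, protein kinase C isoforms, RAGE ligands, NADPH oxidases, the antioxidant pathway and glucose-sensing transcription. Of these, 111 were in the annotation, and 108 had at least 1 peak. A promoter peak was present in at least 1 sample at 36 of the 111, against 25.8% of all genes, and in all 6 samples at 8, against 6.92%. These 8 were Slc2a3, Hk1, Ldha, Prkci, Noxo1, Gclc, Prdx6 and Bach1, named after their values were seen. Slc2a3 encodes the transporter GLUT3, Hk1 and Ldha encode glycolytic enzymes, and Gclc makes the first step of glutathione synthesis.

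There were 881 regions at the genes of the list, and all 6 samples called 204 of these. By limma, 0 of the 204 passed an adjusted p below 0.05, while 3 were higher and 4 lower at an unadjusted p below 0.05 (3.43%, against 4.18% of all regions). Their median log2 fold change was -0.020. Of the 108 genes of the list with peaks, 8 had more peaks in every treated sample than in every control sample, and 1 had fewer. Over all genes with peaks, these patterns were seen at 4.02% and 0.345%. Both shares of the list were above these, the second through 1 gene only, and the difference was not tested. Genes of protein kinase C, with 237 of the 881 regions, were 3 of the 8. The list was not matched to all genes for the number of peaks per gene. All 3 treated samples and no control sample called 9 of the 881 regions (1.02%, against 0.948% of all regions), and the opposite pattern was seen in 1 (0.114%, against 0.233%). Both shares were near or below those of the genome.

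The 5 regions with the highest pileup among the 9 are given by their values only. Genes of protein kinase C held 4 of the 9, and 237 of the 881 regions. Prkce, the epsilon isoform, had a region on chromosome 17 from 87054705 to 87055058 with 25, 24 and 24 reads in TGF-β1 replicates 1, 2 and 3, and a further one from 86744928 to 86745561 with 23, 22 and 25 reads. Prkci, the iota isoform, had one on chromosome 3 from 30928436 to 30928782 (20, 23 and 21 reads), and Prkch, the eta isoform, one on chromosome 12 from 74824647 to 74825175 (19, 16 and 20 reads). In Slc5a1, the sodium-coupled glucose transporter SGLT1, the region on chromosome 5 from 33489342 to 33489749 had 14, 17 and 21 reads. These regions were without a peak in all 3 control samples, which were the less deeply sequenced, and the part of depth was not tested. The region with the opposite pattern, named after its values were seen, lay in Hk1 on chromosome 10 from 61777776 to 61778276, with 19, 17 and 15 reads in the control samples and no peak in the treated samples.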

How the data were processed

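Per the labels, the files and the paper's methods, genomic DNA (5 μg) sheared to a median of 200 bp was enriched by MeDIP. The authors aligned reads to mm9 with BWA, kept uniquely mapped reads once per starting position and called peaks with MACS2 (2.1.0.20150731, q cutoff 0.01, no input sample, regional background over 10000 bp) in each sample. As signal, the authors deposited the pileup without scaling for depth. They also deposited the ratio of pileup to local background (fold enrichment) and, as -log10, p-values and q-values.

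Positions were counted from 1. Peaks of all samples were joined where they shared at least 1 bp, and a sample's value in a region was its highest pileup. Genes came from GENCODE vM1 and sequence from NCBIM37, the assembly of mm9 (0 peaks ran past the end of any of 21 chromosomes). Region sequence was read on these 21 chromosomes only. The sequence of some windows is not reported here. Regions were numbered along the chromosome within each gene. Exon and intron numbers refer to the transcript with the longest coding sequence.

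Log2 pileup was tested with limma 3.58.1 in R 4.3.3 (lmFit, eBayes with trend) over the 41744 regions called in all samples. The paper's test on read counts was not repeated, since the lists hold no reads of uncalled regions. In simulated data of this size, limma recovered 187 of 200 regions changed by 1 on the log2 scale (93.5%) and called 9 unchanged ones. Every simulated region had the same spread, the median of the real regions, and a changed region could not lose its peak call. The share that would be recovered in the real data may therefore differ and was not tested. Numbers of peaks were compared by exact permutation tests over the 20 assignments of samples, in Python 3.11.15.

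Named were all 10 genes and, with values by sample, each region called in all samples, at a promoter, or called in at least 2 more samples of 1 group than of the other. Of the pathway list, group-specific regions were named, at most 5 by mean pileup. Members and lists were chosen with earlier results of these data known. Alternatives were thresholds of 5 on -log10 q or fold enrichment, scaling, windows of 2 kb, joining up to 200 bp, omission of single samples and a block for the replicate number.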

Additional observations from a re-analysis of the deposited data

How the results depend on the processing

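Under every alternative run, 0 regions of the 10 genes passed a limma adjusted p below 0.05. In the genome 1 region did with fold enrichment in place of pileup, and 0 did otherwise. The number of regions of the 10 genes at an unadjusted p below 0.05, 1 as reported, was 0 for pileup per 1000000 reads, 2 among regions called in at least 3 samples, and 0 to 1 with a sample left out. Over the genome, 1744 regions (818 higher, 926 lower) were at an unadjusted p below 0.05. Per 1000000 reads 212 were higher and 2387 lower. Without scaling it was 4872 (4855 higher, 17 lower), and among regions called in at least 3 samples 3997 (2570 higher, 1427 lower). In that last setting, a sample without a peak was given its lowest called pileup, 8 to 10 reads, so the fit held calls as well as heights. With a sample left out of the main fit, the number of regions was 1330 to 2477 (632 to 1264 higher, 698 to 1236 lower). The balance of directions thus moved with the scaling, and the cause of the other shifts was not tested.

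The difference in peaks over the 10 genes, 2 as reported, was -3.33 when peaks had to reach a fold enrichment of 5, -0.554 per 1000000 reads and -2.50 to 5.50 with a sample left out. In gene bodies it was 3.33, or -0.161 per 1000000 reads, and at promoters 0.333, or -0.333 with bounds of 1 kb on either side of a start. In the flanks it was -1.67, or 0 with 2 kb in place of 10 kb, and -3.17 to -0.167 with a sample left out. With 2 kb in place of 10 kb, the differences at Slc2a1 and Akr1b3 turned from -0.333 to 0.667 each. At Ager it was -0.667 with the same threshold of 5, and at Slc2a4 -0.00488 per 1000000 reads. With a sample left out, the differences reached -1.50 to 0.5 at Slc2a1, -0.167 to 0.833 at Slc2a4, -0.833 to 0.167 at Txnip, and -1 to 0.5 at Akr1b3 and Pfkfb3. Regions called in all treated and no control samples numbered 1 to 2 with a sample left out, and those with the opposite pattern 0 to 1. With a sample left out these patterns ask for fewer samples, and their shares of all regions were not counted.

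Fitted log2 fold changes turned in sign per 1000000 reads for region 3 of Slc2a4 (-0.04) and region 1 of Slc2a1 (-0.07). Without scaling they turned for region 7 of Pfkfb3 (0.07), region 3 of Nfe2l2 (0.05), region 4 of Txnip (0.15) and region 7 of Gfpt1 (0.01). With fold enrichment, region 3 of Slc2a4 was at -0.06, and among regions called in at least 3 samples region 1 of Slc2a1 was at -0.00047. With a sample left out, the values were -0.19 to 0.24 for region 1 of Slc2a1, -0.03 to 0.13 for region 3 of Slc2a4, -0.02 to 0.33 for region 1 of Nfe2l2, -0.18 to 0.05 for region 4 of Txnip and -0.28 to 0.07 for region 7 of Pfkfb3.

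Same-numbered samples did not deviate together (r = -0.0464, 0.0432 and -0.130 over regions), so the numbers were not taken as pairs. With the replicate block, 0 regions of the genome passed and 1 region of the 10 genes was at an unadjusted p below 0.05, and it changed no other call. The block gave the same difference of 2 peaks (exact sign-flip test, p = 1). The samples had 9407103 to 13291419 reads and a lowest called pileup of 8 to 10 reads, and loss of a peak in a region near this limit could not be told from a small change in height.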
